A study of Mus musculus with 2 samples.

Results

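The aquaporins, the channel family that carries water and, in some members, glycerol or hydrogen peroxide across membranes, are described here in 3T3-L1 cells early in adipogenesis, on 1 array of cells given a control siRNA and 1 array of cells given an siRNA against Phf21a. All probe sets annotated to 1 gene only were taken for Aqp1, Aqp3, Aqp4, Aqp5, Aqp7, Aqp8, Aqp9 and Aqp11, which gave 17 probe sets of 8 genes among 45101 probe sets on the array, and 0 further probe sets were shared by an aquaporin with another gene. The family was chosen by the signals of these same arrays, above all the log2 ratio of Aqp1, so every value below is a description. With 1 array per group no test was possible, no value has a replicate error, and the number of arrays limits the precision.

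3T3-L1 is an established line of mouse preadipocytes that can be driven to become fat cells in culture. Preadipocytes were transfected with siGL3, the control siRNA, or with an siRNA against Phf21a, the gene of the BHC80 subunit of a histone-modifying corepressor complex. Adipogenesis was started 24 h after transfection with insulin, dexamethasone and 3-isobutyl-1-methylxanthine, and total RNA was taken after a further 24 h. Both cultures were grown in DMEM with 25 mM glucose and 10% FBS, so the groups share the medium and the hormones and differ in the siRNA alone as far as the labels say. The cells are 1 line, the labels name 1 sample per siRNA, and they do not say how many siRNA sequences were used.

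An aquaporin is a membrane-spanning protein that assembles as a tetramer, each subunit with its own pore. Aqp1, Aqp4, Aqp5 and Aqp8 conduct mainly water. Aqp3, Aqp7 and Aqp9 are aquaglyceroporins, which also pass glycerol, and Aqp7 is known as the main route by which glycerol from lipolysis leaves mature fat cells. Aqp11 is a distant member found in intracellular membranes. Aqp3, Aqp8 and Aqp11 are also known to let hydrogen peroxide through.

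Values are MAS5 signals, the linear brightness of a probe set after the authors' processing. Detected probe sets are those with a signal of 51.3 or more on at least 1 array, which is the pooled median. Signals under 12.9, the pooled 25th percentile, were raised to that floor before log2 was taken. Log2 ratios are Phf21a siRNA over control siRNA, and "higher" and "lower" refer to the Phf21a siRNA array. The local spread printed after ± comes from the 1000 detected probe sets nearest in mean signal and equals the gap from the 16th to the 84th percentile of their log2 ratios, divided by 2. It describes the scatter between these 2 arrays, true changes included, and is not the error between cultures.

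Phf21a itself had signals of 768 with control siRNA and 306 with Phf21a siRNA on its brightest probe set (log2 ratio -1.33 ± 0.52). Its other detected probe sets read 592 and 233 (-1.35 ± 0.57), and 111 and 67.0 (-0.73 ± 0.64). A further probe set was undetected at 39.2 and 43.8. By its detected probe sets the targeted gene was thus lower on the array labelled for its siRNA. Ratios of 3′ to 5′ control signals, a sign of RNA quality, were 0.79 and 0.82 for Gapdh and 1.15 and 1.22 for Actb, in the order control and Phf21a siRNA. Spiked poly-A control RNAs were brighter on the Phf21a siRNA array by a median log2 ratio of 0.68, and the hybridisation controls by 0.26. Scaling the arrays to either would move every gene down by that amount, so any log2 ratio between 0 and 0.68 turns negative under poly-A scaling, and any between 0 and 0.26 under hybridisation scaling.

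Of the 17 aquaporin probe sets 8 were detected, and these stood for 6 of the 8 genes. Among the 8, 4 were above the detection limit on both arrays and 4 on 1 array only. At least 2-fold lower were 2 of the 8, beside 6.73% of all 23901 detected probe sets, and at least 2-fold higher were 2 of the 8, beside 5.31%. Since the members were picked with such values known, nothing is read from the counts. Aqp1 was the single member past 2-fold in either direction with both signals above the limit. The 9 undetected probe sets had signals from 0.365 to 37.1. By the higher of its signals, the nearest member below the limit was a probe set of Aqp3 at 37.1, and the nearest above it were 1 of Aqp11 at 52.5 and 1 of Aqp4 at 52.8.

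**Figure D1:**
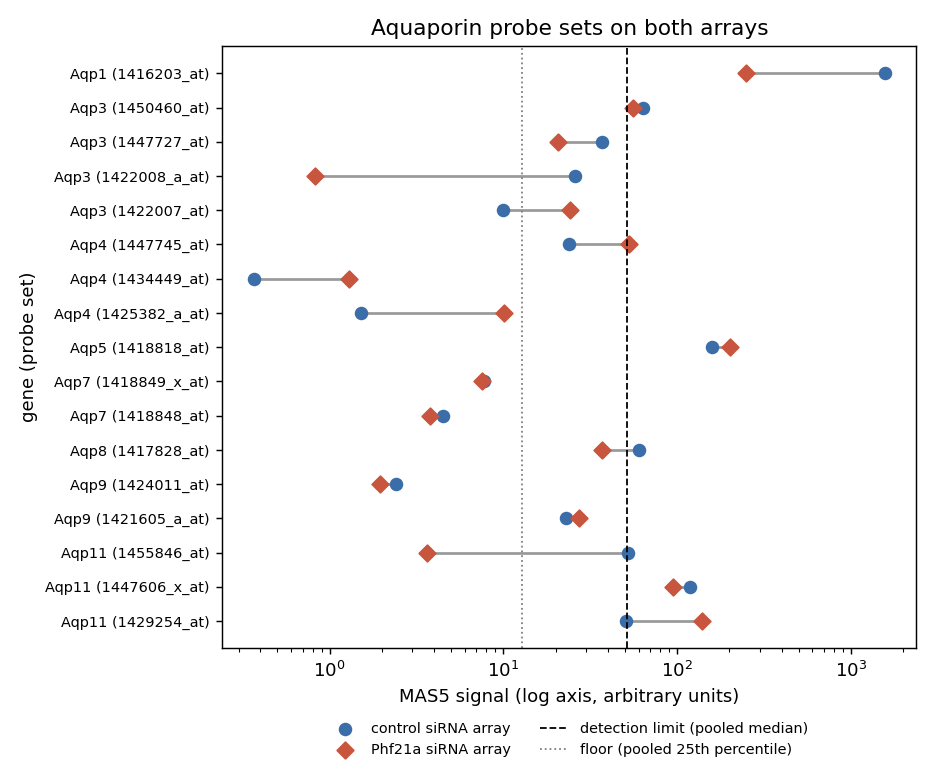
MAS5 signal (log axis) of all 17 aquaporin probe sets on the control siRNA array (circles) and the Phf21a siRNA array (diamonds), joined by a line, with the detection limit of 51.3 (dashed) and the floor of 12.9 (dotted). Aqp1 lies far to the right of the limit on both arrays and is lower with Phf21a siRNA, at 250.0 against 1571, while both Aqp7 probe sets lie left of the floor.

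Aqp1 (Entrez gene 11826), the constitutive water pore of red cells, capillary endothelium and many fluid-moving epithelia, gave the clearest difference of the family. Its only probe set read 1571 with control siRNA and 250.0 with Phf21a siRNA. The signal was thus 6.29-fold lower with Phf21a siRNA (log2 ratio -2.65 ± 0.53), a distance from 0 larger than its local spread. Among the 1000 detected probe sets nearest in signal, 5.2% were at least 2-fold lower and 4.2% at least 2-fold higher. In bulk RNA, fewer cells that express Aqp1 and less Aqp1 RNA per cell cannot be told apart.

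By log2 ratio Aqp1 stood 16th from the lowest of 11301 detected genes. It was 7th from the lowest of 5471 genes whose higher signal reached the pooled 75th percentile (461) and whose detected probe sets agreed in sign. Aqp1 reached 461 on the control siRNA array alone, as did the genes named next other than Gja1. With 1 probe set, Aqp1 agreed in sign by default. Both ranks rest on the ratio by which the family was chosen and are descriptions only. Likeness to Aqp1 was measured as the difference in log2 ratio over the 2 arrays among those 5471 genes. Next below Aqp1 came Apmap, a membrane protein of adipocytes (1463 to 201, log2 ratio -2.86), Gja1, the gap junction protein connexin 43 (5107 to 726, -2.82), and E2f4, a cell cycle transcription factor (755 to 113, -2.74). Next above came Ap3m1, a subunit of the AP-3 sorting adaptor (1512 to 261, -2.53), Ramp3, an accessory protein of peptide hormone receptors (1169.6 to 208, -2.49), and Rbmx, an RNA-binding protein (1079 to 203, -2.41). All 6 lay within 0.25 of Aqp1, less than its local spread, so their order around Aqp1 is not resolved. Aqp1 has 1 probe set, whereas the 6 probe sets of Gja1 ranged from -4.25 to -0.91 and other probe sets of Ap3m1 and Rbmx came as close to 0 as -0.67 and -0.35.

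Markers of cell types known to be rich in Aqp1 were read on the same arrays. Of 8 endothelial marker genes 0 were detected, and the sum of their brightest probe sets was 101 with control siRNA and 74.9 with Phf21a siRNA. The brightest with control siRNA, Cdh5 (34.9 and 3.81) and Tek (24.7 and 11.6), were lower with Phf21a siRNA, as Aqp1 was. Emcn alone was higher (6.43 and 14.5). Pecam1 read 10.0 and 5.07, Vwf 4.77 and 4.67, and Tie1 1.27 and 1.03. Like these, Kdr and Cldn5 were under the floor on both arrays. Of the 5 erythroid markers on the array 0 were detected either, with sums of 68.6 and 66.9. Of 6 epithelial markers 2 were detected, and their sum was lower with Phf21a siRNA, as Aqp1 was (257 and 178 over all 6). The part of the endothelial and epithelial markers in the Aqp1 difference was not tested. Fibroblast and preadipocyte markers were all detected (8 of 8). By the brightest probe set, Dlk1, the preadipocyte factor (12290.0 and 5939.8, -1.05 ± 0.29), and Col1a1 (4274 and 2867, -0.58 ± 0.41) were lower. Pdgfrb was higher (2092 and 3743, 0.84 ± 0.42), with its second probe set at 0.13. Col1a2 (16607 and 17309), Vim (27291 and 29961), Pdgfra (-0.16 ± 0.45), Col3a1 (-0.19 ± 0.225) and Thy1 (-0.30 ± 0.49) differed by less than their local spread. Other detected probe sets went down to -0.57 for Pdgfra and -0.88 for Col3a1.

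Aqp5, the apical water channel of salivary, tear and lung epithelium, had signals of 158 and 202 on its only probe set (Entrez gene 11830). The log2 ratio of 0.35 was smaller than its local spread of 0.61, and it turned to -0.33 under poly-A scaling. No difference between the arrays was resolved for Aqp5. The epithelial markers Cdh1 (7.99 and 0.965), Krt18 (19.1 and 4.77), Krt19 (2.77 and 3.78) and Cldn4 (19.0 and 32.2) were undetected. Epcam (146 and 79.5 on a probe set ending in _x_at) and Krt8 (61.9 and 57.1) were detected, the same 2 of 6. Their part in the Aqp5 signal was not tested.

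RefSeq promoter windows (GRCm38.p6) were found for 7 of the 8 genes, all but Aqp4. Those of Aqp1 and Aqp5 are printed for comparison, each as the 250 bases before the annotated gene start, 5′ to 3′ on the gene's strand. Aqp1 had the largest absolute log2 ratio. Of the members that conduct mainly water, Aqp5 was the only other one above the limit on both arrays. Aqp1 is at chr6:55336049-55336298 and Aqp5 at chr15:99590778-99591027, both on the plus strand. Capitals mark matches, on either strand, to the GC box GGGCGG and the CACCC box, and no 2 of the marked matches overlap.
Aqp1: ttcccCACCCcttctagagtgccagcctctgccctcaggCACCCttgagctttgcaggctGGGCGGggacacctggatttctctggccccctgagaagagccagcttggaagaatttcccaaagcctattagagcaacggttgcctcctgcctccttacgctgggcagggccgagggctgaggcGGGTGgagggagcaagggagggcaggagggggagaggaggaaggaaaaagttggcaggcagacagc
Aqp5: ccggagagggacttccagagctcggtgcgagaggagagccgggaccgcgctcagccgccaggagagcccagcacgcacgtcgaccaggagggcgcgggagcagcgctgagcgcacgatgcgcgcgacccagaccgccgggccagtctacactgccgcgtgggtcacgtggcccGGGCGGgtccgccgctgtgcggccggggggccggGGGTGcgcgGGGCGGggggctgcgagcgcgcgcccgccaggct

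The Aqp1 window held 1 GC box and 3 CACCC boxes, and the Aqp5 window 2 GC boxes and 1 CACCC box. GC boxes were present in 32.7% and CACCC boxes in 52.0% of 32851 mouse promoter windows of the same length, so neither is rare. Neither window held the TATA box TATAAA (12.4% of windows), CCAAT (33.8%), the nuclear receptor half-site AGGTCA (14.0%) or the glucocorticoid receptor half-site AGAACA (16.1%). The windows differed in base composition. GC content was 62.0% for Aqp1 and 78.4% for Aqp5, against a median of 52.4% over all windows, and CG dinucleotides numbered 5 and 38, against a median of 6. The arrays measure RNA and say nothing about binding at these letters.

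Aqp4 (Entrez gene 11829), the water channel of astrocyte end-feet, was barely measurable. Its probe set 1447745_at read 23.8 with control siRNA and 52.8 with Phf21a siRNA, which is over the limit on the latter alone. The log2 ratio of 1.15 was within its local spread of 1.53 and shrank to 0.04 when both signals were raised to the limit. The other 2 probe sets read 1.53 and 10.1, and 0.365 and 1.29, all under the floor.

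Aqp8 (Entrez gene 11833), a channel found in liver, pancreas and gut, read 60.3 with control siRNA and 37.0 with Phf21a siRNA. Its log2 ratio of -0.71 was within the local spread of 0.86, and was -0.24 with the lower signal raised to the limit. As for Aqp4, a probe set this dim counts as detected through its brighter array alone.

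Among the aquaglyceroporins, Aqp7 and Aqp9 were not detected. Aqp7 (Entrez gene 11832) read 4.51 and 3.80 on one probe set and 7.78 and 7.56 on the other, in the order control and Phf21a siRNA, all under the floor. Aqp9, the glycerol channel of liver (Entrez gene 64008), read 22.9 and 27.2 on one probe set and 2.40 and 1.96 on the other. For these 2 genes neither array gave a measurable level, and a difference was not detectable. Of the 6 adipocyte markers on the array 4 were detected. These were Fabp4, a fatty acid binding protein (3502 and 5849), Lpl, lipoprotein lipase (3614 and 3253), Pparg, the master regulator of fat cells (512 and 814), and Cd36, a fatty acid transporter (37.5 and 53.0). The others were Adipoq, the adiponectin gene, at 12.5 and 26.5 and Cebpa, an adipogenic transcription factor, at 45.0 and 12.0.

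Aqp3 (Entrez gene 11828), the glycerol and water channel of skin, kidney and airway epithelium, had 4 probe sets, of which 1 was detected. That one, 1450460_at, read 63.5 and 56.0, a log2 ratio of -0.18 against a local spread of 0.64, so the arrays did not differ beyond the scatter at this signal. The direction turned to 0.01 under loess normalization. The undetected probe sets read 37.1 and 20.6, 26.0 and 0.821, and 9.91 and 24.1, and did not go the same way.

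Aqp11 (Entrez gene 66333), the intracellular member, had 3 probe sets, all detected and in conflict. Probe set 1429254_at read 50.8 with control siRNA and 139.9 with Phf21a siRNA, 2.76-fold higher (log2 ratio 1.46 ± 0.64). Probe set 1447606_x_at read 119 and 95.3 (-0.32 ± 0.64), and its suffix marks probes that may also bind other transcripts. Probe set 1455846_at read 52.5 and 3.64, a log2 ratio of -2.03 with the lower signal at the floor and -0.03 with it raised to the limit. The first was thus higher by more than its local spread, the second differed by less than its spread, and the third gave no more than a signal near the limit on 1 array. Under poly-A scaling the log2 ratio of 1429254_at was 0.78, no longer 2-fold. The direction of Aqp11 is therefore not settled by these probe sets.

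**Figure D2:**
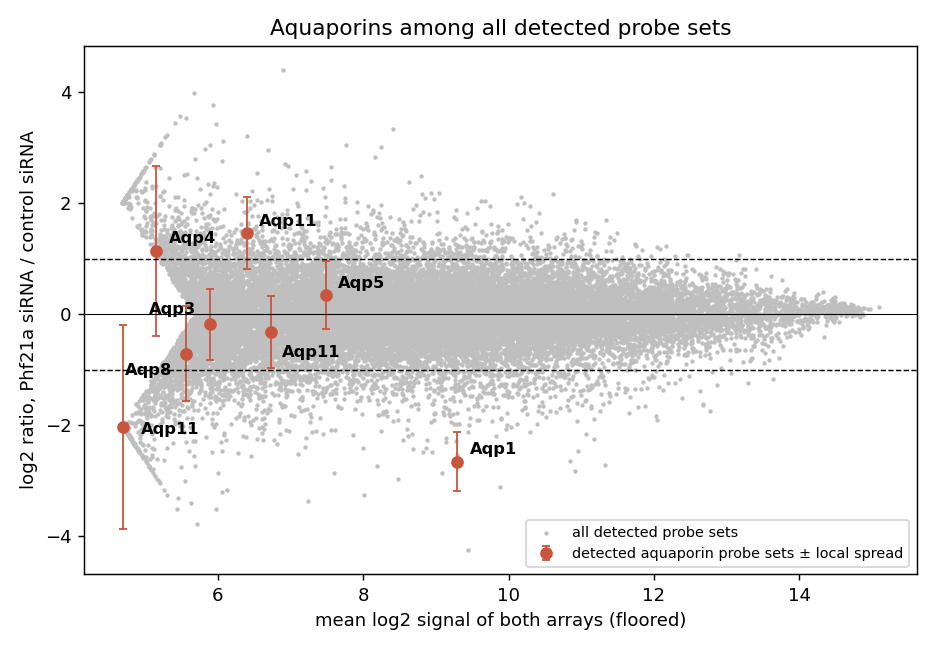
Log2 ratio (Phf21a siRNA over control siRNA) against mean log2 signal for all 23901 detected probe sets (grey) and the 8 detected aquaporin probe sets (red, bars are ± the local spread), with dashed lines at 2-fold. Aqp1 at -2.65 stands below the bulk of probe sets of like signal, whereas Aqp3, Aqp5 and Aqp8 lie within it and the 3 Aqp11 probe sets scatter from -2.03 to 1.46. The empty wedge at the left arises because a probe set that dim is detected only if it is brighter on 1 array.

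The other aquaporin genes on the array add 8 probe sets of 4 genes, of which 2 were detected, both on the control array alone. Aqp2, the vasopressin-regulated channel of the kidney collecting duct, read 60.3 and 24.3 (log2 ratio -1.31 ± 1.32). Aqp12, an intracellular channel of the pancreas, read 65.1 and 6.30, the latter under the floor. With both signals raised to the limit their log2 ratios were -0.23 and -0.35. The 4 probe sets of Aqp6 and the 2 of Mip, the lens channel, were undetected, the highest at 47.4. Across all 12 genes and 25 probe sets, Aqp1 was the only gene with a signal over the pooled 75th percentile on either array.

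Over the 6 detected members, each by its brightest probe set, the median log2 ratio was 0.09, and it was 0.03 over all 11301 detected genes. Without Aqp1 the median of the other 5 was 0.35, Aqp4 and Aqp11 with their conflicting or dim probe sets included. Under poly-A scaling the median of the 6 was -0.59.

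Genes that act with the aquaporins were described from 4 lists, each gene by its brightest detected probe set. Beside the counts that follow, 5.68% of all detected genes were at least 2-fold lower and 5.84% at least 2-fold higher. Under poly-A scaling 28.6% of all detected probe sets were at least 2-fold lower and 1.27% at least 2-fold higher. Under hybridisation scaling these shares were 11.6% and 2.9%. In the list of lipolysis and glycerol handling, which makes and uses the glycerol that Aqp3, Aqp7 and Aqp9 carry, 12 of 14 genes had a probe set of 1 gene and 8 were detected. Past 2-fold there were 2 higher genes and 0 lower ones, and 0 higher and 1 lower under poly-A scaling. The median log2 ratio of 0.35 turned to -0.33 under that scaling. Gpd1l, a glycerol-3-phosphate dehydrogenase, read 616 and 1504 (1.29 ± 0.49), and Pnpla2, which starts triglyceride breakdown, read 238 and 568 (1.25 ± 0.57). Under poly-A scaling they were at 0.61 and 0.57, and Lipe, hormone-sensitive lipase, was the lower gene at -1.17 (-0.49 ± 0.57 as measured). Gpd2, the mitochondrial glycerol-3-phosphate dehydrogenase, was at 0.50 ± 0.41 with probe sets down to -0.70, and at -0.18 under poly-A scaling. Mgll, the monoglyceride lipase that frees glycerol, was undetected at 44.1 and 4.61, and Gpd1 at 47.1 and 30.6.

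In the list of cell volume regulation, the ion and osmolyte transport that water follows through aquaporins, 18 genes were detected, 1 of them at least 2-fold higher and 0 lower. Under poly-A scaling 0 were higher and 4 lower, beside 1.27% and 28.6% of all detected probe sets. Under hybridisation scaling 0 were higher and 2 lower, beside 2.9% and 11.6%. The median was 0.07, and -0.61 under poly-A and -0.19 under hybridisation scaling. Lrrc8d, a subunit of the volume-regulated anion channel, read 323 and 657 (1.03 ± 0.51), but its second probe set gave -0.50. Lrrc8c of the same channel was at 0.71 ± 0.47, with its second probe set at 0.07, and at 0.03 under poly-A scaling. Atp1b3, a beta subunit of the sodium pump (6239 and 3387, -0.88 ± 0.37), and Stk39, the kinase SPAK that activates the sodium-potassium-chloride cotransporter (471 and 259, -0.86 ± 0.55), were lower by more than their local spread. Trpv4, a calcium channel opened by cell swelling that is known to work with aquaporins, read 145 and 125 (-0.21 ± 0.61). The list thus went both ways and its centre lay near that of all genes.

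In the list of regulators and anchors, 10 genes were detected, 2 at least 2-fold higher and 1 lower (median 0.15, and -0.53 and -0.11 under the poly-A and hybridisation scalings). Those higher were both dystrobrevins, scaffold proteins of the dystrophin complex that holds Aqp4 at the membrane. Dtna read 146 and 540.4 (1.89 ± 0.56), with 6 probe sets from 1.01 to 2.25, and Dtnb 63.9 and 149 (1.22 ± 0.64). Dtna stayed past 2-fold under poly-A scaling at 1.21, while Dtnb was then at 0.54. Dmd itself was undetected at 15.5 and 9.68. Epas1, the hypoxia-inducible factor HIF-2alpha, was lower (128 and 55.9, -1.20 ± 0.64). Pparg, a direct activator of Aqp7 in fat cells, read 512 and 814 (0.67 ± 0.52, and -0.01 under poly-A scaling), while the Aqp7 probe sets stayed under the floor on both arrays. Nr3c1, the glucocorticoid receptor that dexamethasone acts on, was at 0.26 ± 0.47, and at -0.43 under poly-A scaling.

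In the list of hydrogen peroxide production and removal, 10 genes were detected, of which 1 was higher and 0 lower past 2-fold. Under poly-A scaling 0 were higher and 1 lower, beside 1.27% and 28.6% of all detected probe sets. Log2 ratios were above 0 in 9 of 10, beside 52.0% of all detected genes, and in 1 of 10 under poly-A scaling, beside 12.6%. The median of 0.32 turned to -0.36 under that scaling. Nox4, a hydrogen peroxide producing oxidase, read 246 and 548 (1.15 ± 0.57) with its second detected probe set at 1.30, and was at 0.47 under poly-A scaling. Cat, catalase, was at 0.60 ± 0.41 and Sod3, the extracellular superoxide dismutase, at 0.57 ± 0.50 (-0.08 and -0.11 under poly-A scaling). The second detected probe set gave 1.16 for Cat and -0.06 for Sod3. The superoxide dismutase genes Sod1 and Sod2 were above 0 by the brightest probe set (0.27 and 0.16). Their other detected probe sets went down to -0.27 and -1.15. Prdx3, the mitochondrial peroxiredoxin, was at -0.60 ± 0.40. The summed leukocyte markers were higher too, with sums of 423 and 746 on the control and Phf21a siRNA arrays and 5 of 8 detected. Csf1r (199.8 and 452), Cd68 (64.0 and 119), Fcer1g (25.7 and 54.4) and Lyz2 (53.6 and 71.9) were higher, whereas Laptm5 (66.4 and 22.3) was lower. The defining markers Ptprc (6.87 and 12.2), Tyrobp (4.66 and 6.32) and Cd52 (1.61 and 3.87) were under the floor. Their part in the result was not tested.

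**Figure D3:**
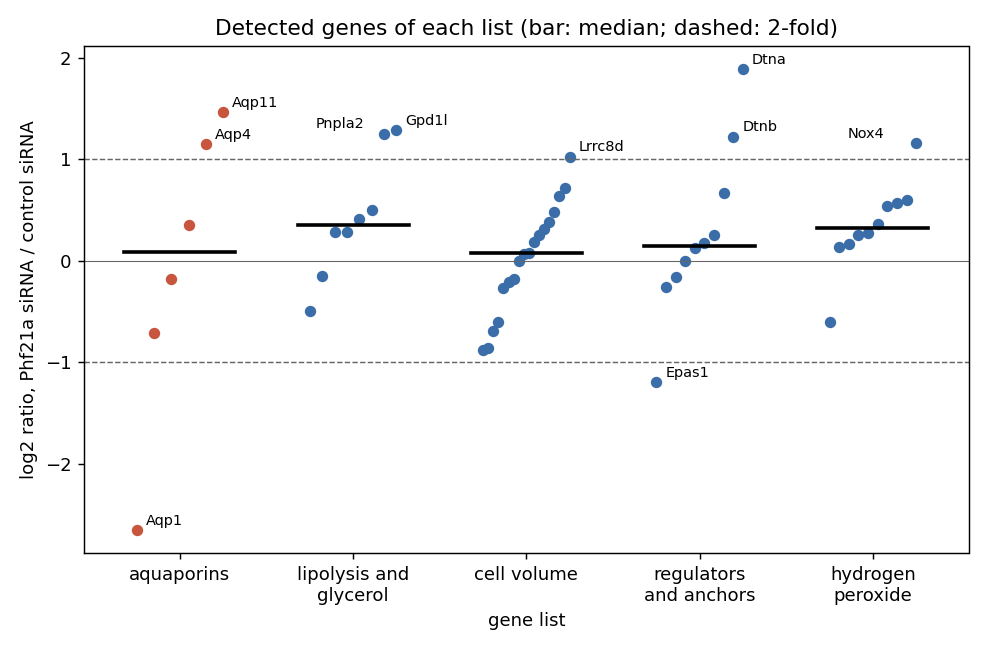
Log2 ratio (Phf21a siRNA over control siRNA) of each detected gene in the aquaporin set and the 4 lists, 1 point per gene by its brightest probe set, with the median as a bar and 2-fold as dashed lines. Aqp1 at -2.65 is the lowest point of all 5 sets, and Dtna at 1.89 the highest. Under poly-A scaling every point moves down by 0.68.

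**Figure D4:**
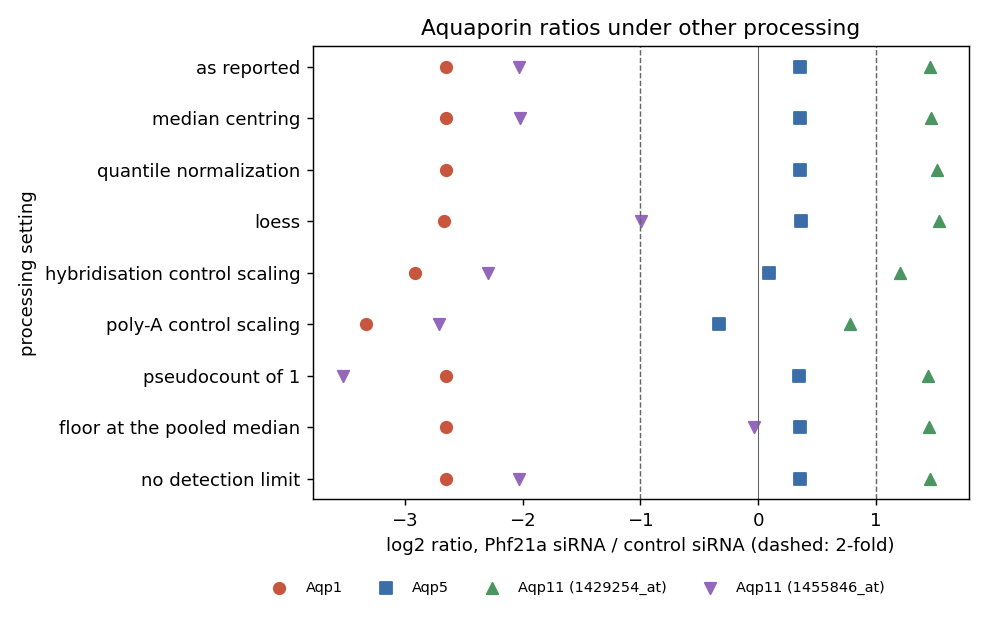
Log2 ratio of Aqp1, Aqp5 and 2 Aqp11 probe sets as reported and under 8 other processing settings, with dashed lines at 2-fold. Aqp1 stays between -3.33 and -2.65, Aqp5 crosses 0 under poly-A scaling, and Aqp11 probe set 1455846_at moves from -3.53 with a pseudocount to -0.03 with a floor at the pooled median.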

How the data were processed

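RNA from 2 cultures was measured on 1 array each (n = 1 per group); each sample's description gave its group. The deposited values are linear signal intensity per probe set, which the authors computed with MAS5 per the submitters' processing notes (version not stated there). The 2% trimmed mean of each array was 500, so totals are equal by construction and the amount of RNA per cell is not measured. Low MAS5 signals are noisy.

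Of 45101 probe sets 64 were controls, 34945 had 1 gene symbol, 932 several and 9160 none in the array's annotation. A gene's value is that of its brightest detected probe set, with _x_at sets used only where there was no other. The members and the 10 gene lists (111 entries) were chosen with earlier results of these data known. The lists cover 4 gene groups and 6 sets of cell markers; over these and the aquaporins 14 entries had no probe set of 1 gene. Named list genes are the 4 with the largest absolute log2 ratio, those past 2-fold and all detected markers. Trpv4, Nr3c1, Sod1, Sod2, Mgll, Gpd1, Dmd and the undetected markers were picked with their values in view. The scripts were tested on simulated data. Alternatives covered scaling, floor, detection limit, fold cutoff and choice of probe sets. Python 3.11.15 was used with matplotlib 3.10.9, statsmodels 0.14.6 (loess), numpy 2.4.6, scipy 1.17.1 and pandas 2.3.3. Genome coordinates (GRCm38.p6) were used for the promoter windows and for the order of neighbouring genes.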

Additional observations from a re-analysis of the deposited data

How the results depend on the processing

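The log2 ratios of the 8 detected aquaporin probe sets, their counts past 2-fold and the medians of the glycerol and cell volume lists were recomputed under up to 12 alternatives, other named genes and lists under the control scalings alone. A value counts as kept when it moved by less than its local spread (for a list, less than the spread among its genes). Aqp1 was kept in 10 of 11, all below 0, and was -3.33 under poly-A scaling. The count of aquaporin probe sets at least 2-fold lower (2 as reported) was 1 under quantile normalization, loess, the floor at the pooled median and the detection limit at the 75th percentile, and 4 under poly-A scaling. In that order, 6.1%, 5.23%, 4.19%, 4.32% and 28.6% of all detected probe sets were at least 2-fold lower. The lower count was 3 with no detection limit, beside 7.33% of all probe sets. By a 1.5-fold cutoff it was also 3, beside 16.3% of all detected probe sets lower by that cutoff. The count at least 2-fold higher (2 as reported) was 1 under hybridisation scaling and the floor at the pooled median, and 0 under poly-A scaling, the limit at the 75th percentile and a 3-fold cutoff. The shares of all detected probe sets higher by the same cutoff were, in that order, 2.9%, 3.5%, 1.27%, 3.24% and 1.49%. Medians of the glycerol and cell volume lists moved to -0.33 and -0.61 under poly-A scaling and were kept in the other 10 of 11. No aquaporin probe set past 2-fold changed sign. No paired analysis was possible because each group has 1 array, which also leaves no replicate to leave out. Signals near the detection limit are what limits the dim members: with both signals raised to it, Aqp4, Aqp8 and 1 Aqp11 probe set were at 0.04, -0.24 and -0.03.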

Other observations

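The genes next to the aquaporins on their chromosomes were looked at after the values were seen, by gene order in the RefSeq table of assembly GRCm38.p6 and among the 3 protein-coding genes on each side. Of the 6 around Aqp1, 2 were detected. Mindy4, next to it on one side, read 151 with control siRNA and 135 with Phf21a siRNA (log2 ratio -0.16 ± 0.60). Adcyap1r1, the receptor of the neuropeptide PACAP and the second gene on the other side, read 143 and 25.6, the latter under the detection limit. Its log2 ratio was -2.48 ± 0.63, and -1.48 with the lower signal raised to the limit. Ghrhr, which lies between Aqp1 and Adcyap1r1, was undetected. Aqp2, Aqp5 and Aqp6 follow one another on chromosome 15, and Aqp7 and Aqp3 are neighbours on chromosome 4. In the former group Aqp5 was above the limit on both arrays, Aqp2 on the control array and Aqp6 on neither. Asic1, an acid-sensing channel close to Aqp6, read 172 and 71.7 (-1.26 ± 0.63), and Racgap1 between them 4586 and 4463 (-0.04 ± 0.37). Around all 12 aquaporin genes 32 of 54 other neighbours were detected. Of these, 3 were at least 2-fold lower and 3 at least 2-fold higher, beside 5.68% and 5.84% of all detected genes. Besides Adcyap1r1 and Asic1, the lower one was Lcmt1 next to Aqp8 (-1.35 ± 0.53). Those higher were Mindy2 near Aqp9 (1.54 ± 0.52), Capn10 near Aqp12 (1.37 ± 0.56) and Myo7a near Aqp11 (1.19 ± 0.60). No test of these differences was possible with 1 array per group.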
